A study of Mus musculus with 2 samples.

Results

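The metalloproteinases, ADAM proteases and TIMPs described here are the 55 genes, of 19829 in the deposited table, whose symbol begins with Mmp, Adam, Adamts or Timp in its numbered form, together with *Mep1a* and *Mep1b*. The rule that picks them uses the symbol alone. They comprise 14 matrix metalloproteinases (MMPs), 15 ADAMs, 15 ADAMTS genes, 5 ADAMTS-like genes, 4 tissue inhibitors of metalloproteinases (TIMPs) and 2 meprin subunits.

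Kidney mRNA was sequenced from wild-type mice (library WT+AKI) and from transgenic mice that overexpress *Inmt* in proximal tubules (library TG+AKI), with 1 library per group. *Inmt* encodes indolethylamine N-methyltransferase, and AKI stands for acute kidney injury. Per the study's methods, both groups were male C57BL/6 mice given voclosporin, a calcineurin inhibitor, at 30 mg/kg/day intraperitoneally for 2 weeks between 8 and 10 weeks of age (6 weeks in another passage of the study), and both underwent bilateral renal ischemia for 30 min and reperfusion at 14 weeks. The study's descriptions put the sampling of kidneys at 48 h or, for the design with both genotypes, at 24 h after reperfusion, and the labels do not settle which applies. GEO's treatment field reads as untreated for both samples, although voclosporin is part of the series design, and the transgenic sample is also titled as a conditional knockout. Whether a library came from a single mouse or a pool was not stated. *Inmt* itself had a normalized read count of 10.4 in the wild type and of 402.8 in the transgenic library, a ratio of 38.5 (95% interval 35.1 to 42.5), in the direction of the transgene.

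Metalloproteinases cut proteins outside the cell with the help of a bound zinc ion. MMPs and ADAMTS enzymes mainly cut the extracellular matrix, ADAMs mainly release the outer part of membrane proteins (shedding), and TIMPs block the active site of many of these enzymes. In the kidney, meprins are abundant in the brush border of the proximal tubule, and several MMPs and *Timp1* are known to be induced by injury.

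Values are normalized read counts, that is, whole reads per gene divided by 1 scaling factor per library. The libraries held 38542764 reads (WT+AKI) and 36427421 reads (TG+AKI), so that a value of 1 stood for 42.4 and 33.1 reads. A gene entered the comparison if either library reached a value of 1, and was called higher or lower in TG+AKI when log2(value + 0.1) differed by at least 1, which is 2-fold on that scale. No difference below has a replicate check, since each group was 1 library. The intervals given are exact (Clopper-Pearson) 95% intervals from the reads and cover counting error only.

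Of the 55 members, 42 were compared, and more of them were lower than higher in TG+AKI. The 3 higher members were *Mep1a*, *Mep1b* and *Mmp13*, which is 7.14% of the compared members against 7.02% of the 14997 compared genes. The 13 lower members were 31.0% of those compared, against 10.5% of all compared genes, and were led by *Adam8*, *Timp1*, *Adamts4*, *Mmp3* and *Mmp19*. The other 26 differed by less than 2-fold on the scale with the pseudocount, among them *Adamts14*, whose ratio without it was 2.04. The shares of all compared genes, 10.5% lower and 7.02% higher, also stand beside the counts of each family below. The median log2 difference (TG+AKI minus WT+AKI) was -0.21 over the compared members and -0.02 over all compared genes. For 13 of the 16 called members the whole counting interval lay beyond 2-fold, and for 12 of the 42 compared members it included a ratio of 1. A binomial test of each gene's reads between the 2 libraries (exact, two-sided, saying nothing of the conditions) gave an adjusted p under 0.05 for 30 of the 42 members (71.4%), against 72.4% of all compared genes.

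**Figure D1:**
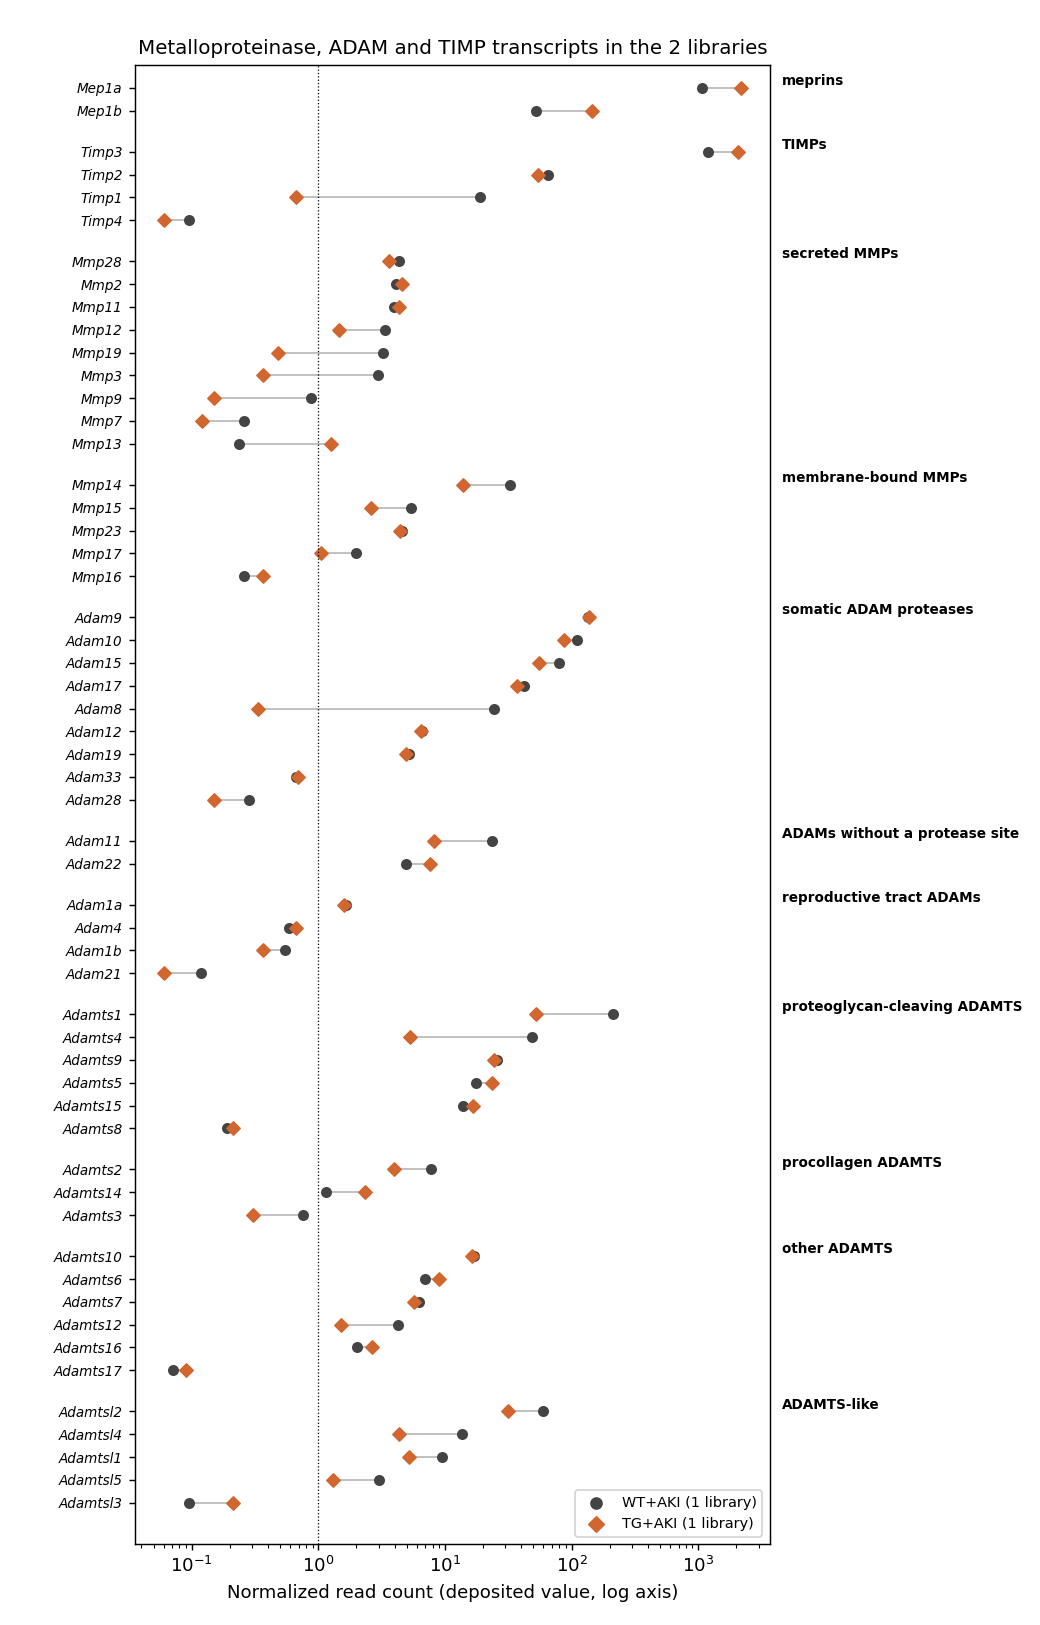
Normalized read count (log axis) of each of the 55 members in WT+AKI (circles) and TG+AKI (diamonds), grouped by role, with 1 library per group, so that no error bar is drawn. *Mep1a* and *Timp3* are the 2 highest in both libraries, while the widest gaps are those of *Adam8* and *Timp1*, and the dotted line marks the minimum value of 1.

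The summed value of the 55 members was 3360.1 in the wild type and 5040.3 in the transgenic library. The sum over all genes was also higher on this scale, at 909104 and 1099984. *Mep1a* and *Timp3*, the 2 members with the highest values in both libraries, made up 67.5% of the members' sum in WT+AKI and 84.2% in TG+AKI. The other 53 members together went the other way, from 1092.9 in WT+AKI to 794.7 in TG+AKI.

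The meprins are astacin-type metalloproteinases of the proximal tubule brush border, where the alpha subunit is secreted or held by the membrane-bound beta subunit. *Mep1a* (gene ID 17287, chr17:43474324-43504143, mm10) rose from 1065 in the wild type to 2169.9 in the transgenic library, on 45150 and 71859 reads. Its ratio was 2.04 (95% interval 2.01 to 2.06), and its log2 difference of 1.03 was just over the threshold, dropping to 0.75 when the libraries were scaled to equal totals and to 0.88 when scaled so that abundant genes had a median ratio of 1. *Mep1b*, which encodes the membrane-bound subunit, rose more, from 52.7 to 145.7, with a ratio of 2.76 (2.63 to 2.91), and was called under each of these scalings. Without correction for transcript length, the value of *Mep1a* was 20.2 times that of *Mep1b* in the wild type and 14.9 times in the transgenic library. Per kilobase of transcript, *Mep1a* ranked highest of the 55 members in both libraries (359 and 731), whereas *Mep1b* moved from rank 6 to rank 3 (23.1 and 63.7). All 8 fixed marker genes of the proximal tubule were also called higher in TG+AKI, against 7.02% of all compared genes. Their log2 differences ran from 1.20 to 3.71, and their summed value went from 2446 to 12109. With equal totals 7 were called higher, against 4.57% of all compared genes. In whole-kidney RNA, fewer cells of a type and less RNA per cell cannot be told apart, and the part of tubule markers in the meprin difference was not tested.

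Of the 4 TIMPs, *Timp1* was called lower, *Timp2* and *Timp3* differed by less than 2-fold, and *Timp4* was at or near the floor of 3 reads. *Timp1* (gene ID 21857, chrX:20870166-20874737), the inducible and soluble member of the family, fell from 18.9 in the wild type to 0.664 in the transgenic library, on 802 and 22 reads. It was 28.5-fold lower (95% interval 18.7 to 45.7), a log2 difference of -4.64, and moved from rank 7 to rank 28 of the 55 members per kilobase. *Timp2*, which also takes part in the activation of pro-MMP2 at the cell surface, had values of 64.8 and 54.7, with a ratio of 0.844 (0.795 to 0.895). *Timp3* (gene ID 21859, chr10:86300412-86349505), the matrix-bound inhibitor that also blocks ADAM17, was the most abundant TIMP by value and per kilobase. Without correction for transcript length, it held 93.5% of the summed TIMP value in the wild type and 97.4% in the transgenic library. Per kilobase, wild-type levels were 254.6 for *Timp3*, 21.4 for *Timp1* and 17.5 for *Timp2*. Transgenic levels were 439.6, 0.752 and 14.7. *Timp3* stood at 1202 and 2076, and its ratio of 1.73 (1.71 to 1.75) was well determined by counting but under the threshold. On either strand, 35.3% of the 100-base words of the *Timp3* transcript also occur in *Syn3*, which was listed at 2.10 and 33.0. Whether these words run in the same direction was not examined, so how far the value of *Timp3* is uncertain is not known. *Timp4* had 4 and 2 reads, and no fold is given.

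Secreted MMPs were all low in these libraries, with the highest value at 4.56, and the compared ones divided into 3 lower, 1 higher and 3 with less than 2-fold difference. Because 4 of them, *Mmp13*, *Mmp12*, *Mmp3* and *Mmp7*, lie in one cluster on chromosome 9 and hold the same motif before at least 1 annotated start, their upstream sequences are shown before the values. The cluster spans 427 kb (chr9:7272514-7699585) and holds 10 MMP genes, of which the other 6 have no row, so that their expression was not analysed here. The sequences are the 100 bases before an annotated transcript start, from RefSeq on GRCm38.p6 (mm10), all on the plus strand and written 5′ to 3′, and the capitals mark TGAGTCA or its reverse complement TGACTCA, the classical binding motif of AP-1 (Fos and Jun family) factors.
Mmp13 (chr9:7272414-7272513): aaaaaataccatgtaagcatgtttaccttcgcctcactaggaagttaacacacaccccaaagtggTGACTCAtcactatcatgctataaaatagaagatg
Mmp12 (chr9:7347274-7347373): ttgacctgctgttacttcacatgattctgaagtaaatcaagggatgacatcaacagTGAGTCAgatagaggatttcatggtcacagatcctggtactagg
Mmp3 (chr9:7445722-7445821): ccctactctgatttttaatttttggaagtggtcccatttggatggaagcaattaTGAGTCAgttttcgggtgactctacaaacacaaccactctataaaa
Mmp7 (chr9:7691990-7692089): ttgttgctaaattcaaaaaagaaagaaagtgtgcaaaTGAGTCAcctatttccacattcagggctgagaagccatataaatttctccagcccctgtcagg

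The first base of the motif lay 35, 44, 46 and 63 bases before the start in *Mmp13*, *Mmp12*, *Mmp3* and *Mmp7*, in that order. The *Mmp12* stretch precedes the second annotated start of that gene, which lies inside the gene, and the window at its first start holds no match. *Mmp7* holds the motif in 1 of 2 windows. Both strands were searched in windows from 250 bases before to 50 bases after each start. Of the 34 members with such a window, 6 held the motif (17.6%), against 4.95% of the 13714 listed genes with a window, and the other 2 were *Adam19* (in 1 of 3 windows) and *Adam1b*. In the chromosome 9 cluster, 7 of 10 genes held it, 3 of them without a row. Of the 4 cluster genes with a row, *Mmp13* was called higher on few reads, *Mmp12* and *Mmp3* were called lower, and *Mmp7* was too low to compare. Any link of the motif to these differences was not tested. The windows of *Timp1*, *Adam8*, *Adamts1* and *Mmp14* held no match, which says only that these letters are not in those windows. The only *Adam8* window (chr7:139992513-139992812, minus strand) lies inside the gene.

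*Mmp13* (collagenase 3) was the only MMP called higher. It went from 0.236 to 1.27, on 10 and 42 reads, a ratio of 5.38 (95% interval 2.66 to 12.0). This call rests on few reads and was not made with a pseudocount of 1, where the log2 difference was 0.88. *Mmp3* (stromelysin-1), which can activate other MMPs, fell from 2.95 to 0.362, from 125 and 12 reads, an 8.14-fold difference (4.50 to 16.2). *Mmp12* (macrophage metalloelastase) stood at 3.37 and 1.45 and was 2.33-fold lower (1.67 to 3.30), a call not made with a pseudocount of 1. *Mmp7* (matrilysin) had only 11 and 4 reads, and its interval of 0.108 to 1.57 for the ratio includes 1.

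The other secreted MMPs are encoded elsewhere in the genome. *Mmp19* fell from 3.23 to 0.483, from 137 and 16 reads, which is 6.69-fold lower (95% interval 3.97 to 12.0). It shares 22.8% of its 100-base words with other transcripts, including *Tmem198b*, which was listed at 10.3 and 8.88. The gelatinases digest denatured collagen and collagen of basement membranes. *Mmp2* (gelatinase A) had 4.08 and 4.56, with a ratio of 1.12 (0.892 to 1.40), whereas *Mmp9* (gelatinase B) had 37 and 5 reads, values of 0.873 and 0.151, and a ratio of 0.173 (0.0531 to 0.441). *Mmp9* did not reach the minimum value and so was not compared. *Mmp11* (stromelysin-3) stood at 3.96 and 4.32 and *Mmp28* (epilysin), which shares 10.99% of its words with *1700020L24Rik*, at 4.34 and 3.62, and both intervals included a ratio of 1. The small positive differences of *Mmp2* and *Mmp11* turned negative with equal library totals, as did that of *Mmp11* with a median ratio of 1.

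Of the 4 compared membrane-bound MMPs, 2 were called lower and none higher. *Mmp14* (MT1-MMP, gene ID 17387, chr14:54431598-54442456), the collagenase that activates pro-MMP2 on the cell surface, was the most abundant MMP gene by value and fell from 32.4 to 13.95, a ratio of 0.430 (95% interval 0.386 to 0.478). *Mmp15* (MT2-MMP) stood at 5.38 and 2.60. Its log2 difference of -1.02 was just past the threshold and its interval of 0.372 to 0.621 crosses 2-fold. The call of *Mmp15* was not made with a pseudocount of 1, where the log2 difference was -0.83. *Mmp17*, a glycosylphosphatidylinositol-anchored member, had 1.98 and 1.06, with a log2 difference of -0.85, and was called lower with equal totals. *Mmp23* stood at 4.55 and 4.38, with an interval of 0.770 to 1.20, and *Mmp16* was too low to compare, at 11 and 12 reads.

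**Figure D2:**
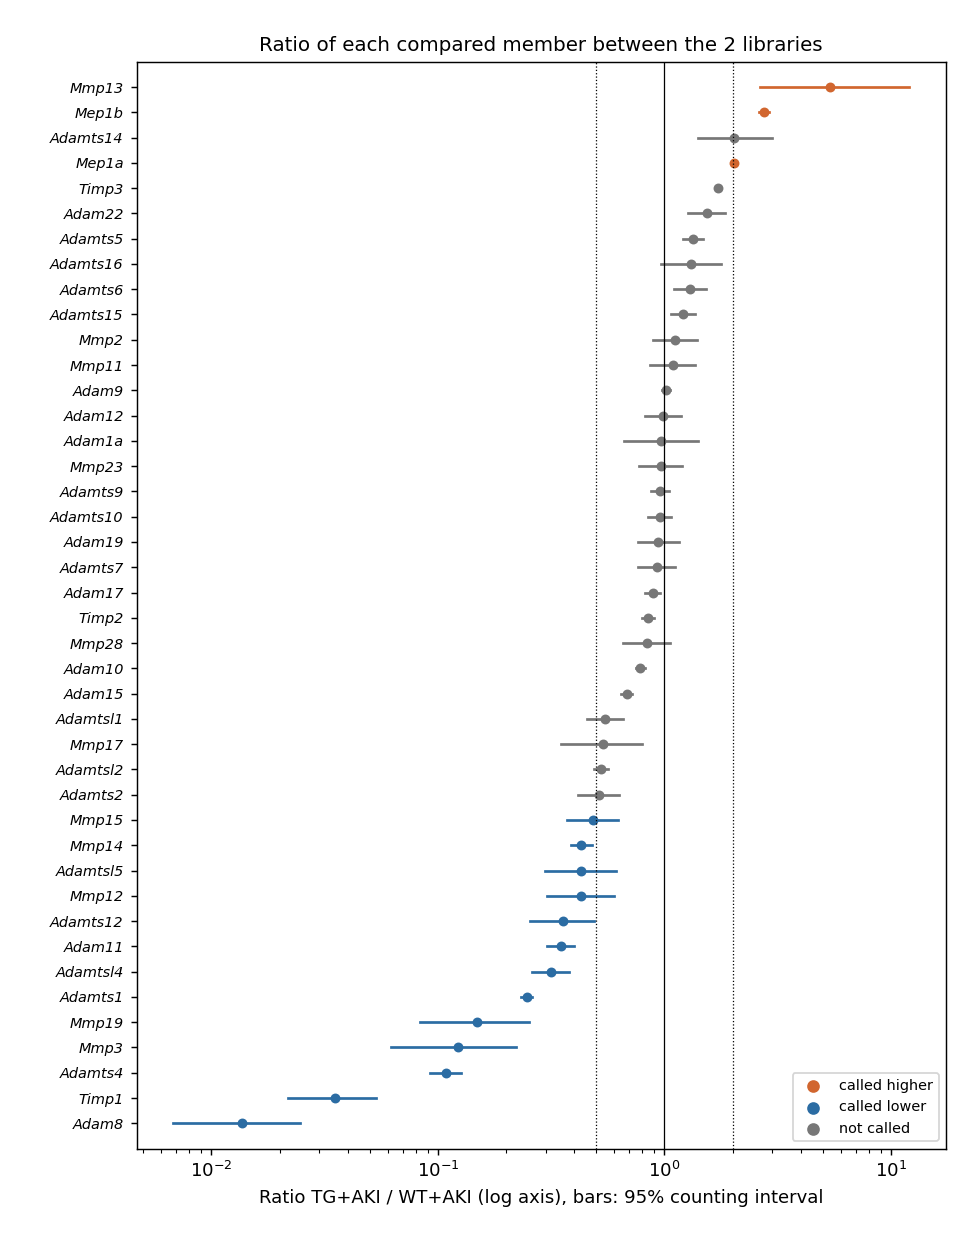
Ratio of TG+AKI to WT+AKI on a log axis for the 42 compared members, with bars for the 95% counting interval, a solid line at 1 and dotted lines at 2-fold either way. *Adam8* (0.0136) and *Timp1* (0.0351) stand farthest to the left and *Mmp13* (5.38) farthest to the right, where its interval is wide. *Mep1a* (2.04) sits at the line and is not called with equal totals or a median ratio of 1. *Adamts14* (2.04) also sits there but is not called, since its log2 difference with the pseudocount is 0.97.

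Among the ADAMs, the widely expressed sheddases differed by less than 2-fold and *Adam8* had the largest difference of any member. *Adam8* (gene ID 11501, chr7:139978932-139995207), a protease known from leukocytes and from injured or inflamed tissue, fell from 24.3 in the wild type to 0.332 in the transgenic library, on 1032 and 11 reads. It was 73.3-fold lower (95% interval 40.8 to 147), with a log2 difference of -5.82, at percentile 0.120 of all compared genes. Per kilobase it moved from rank 14 to rank 46 of the 55 members.

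*Adam10* and *Adam17* (also called TACE) are the principal sheddases for Notch receptors and for TNF and several EGF-family ligands, respectively. *Adam10* had values of 111 and 86.9, with a ratio of 0.783 (95% interval 0.747 to 0.820). *Adam17*, which shares 4.85% of its words with *Iah1*, had 41.9 and 37.2, with a ratio of 0.887 (0.824 to 0.954). *Adam9*, the most abundant ADAM by value and per kilobase, stood at 135.4 and 137.6, and its interval of 0.977 to 1.06 includes 1, while its sign turned negative with equal totals and with a median ratio of 1. *Adam15* stood at 80.3 and 54.8, a ratio of 0.683 (0.645 to 0.723). All 4 were thus within 2-fold, beside a 73.3-fold difference of *Adam8*. *Adam12* and *Adam19* had values between 4.92 and 6.60 and intervals that include 1, and *Adam28* and *Adam33* were not compared, with 5 to 28 reads.

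Of the listed ADAMs, 2 lack a working protease site and act as receptors or adhesion proteins, mainly in the nervous system. *Adam11* fell from 23.5 to 8.18, a ratio of 0.348 (95% interval 0.303 to 0.399). *Adam22*, a receptor for LGI1, was at 4.91 and 7.55, and its ratio of 1.54 (1.28 to 1.86) was under the threshold. Of the 25 ADAMs of the reproductive tract in the list, 4 had a row, and only *Adam1a* was compared, at 1.65 and 1.60. All of the 100-base words of *Adam1a* occur in other transcripts, including *Mapkapk5*, so its reads may belong to them.

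The ADAMTS enzymes that cut proteoglycans such as aggrecan and versican divided into 2 genes that fell and 3 that differed by less than 2-fold. *Adamts1* (gene ID 11504, chr16:85793827-85803113) fell from 213 to 52.5, on 9046 and 1740 reads, and was 4.06-fold lower (95% interval 3.86 to 4.28). Per kilobase it was the third most abundant member in WT+AKI (43.7) and ranked 8 in TG+AKI (10.8). *Adamts4* (gene ID 240913, chr1:171250129-171262267), known as aggrecanase-1, fell from 48.6 to 5.28 and was 9.19-fold lower (7.88 to 10.8).

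*Adamts5* (aggrecanase-2) lies 55.0 kb from *Adamts1* on chromosome 16 and went the other way in value, at 17.7 and 23.7, with a ratio of 1.34 (95% interval 1.21 to 1.48) that was under the threshold. *Adamts9* stood at 25.6 and 24.5 and its interval includes 1. *Adamts15* stood at 13.9 and 16.8, a ratio of 1.21 (1.07 to 1.36), and its log2 difference of 0.27 became -0.0017 with equal totals. *Adamts8*, its neighbor on chromosome 9, had 8 and 7 reads.

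The procollagen N-proteinases trim fibrillar procollagens, and none of the 3 was called. *Adamts2*, the main enzyme of this kind, had 7.71 and 3.96, a log2 difference of -0.95 that passed the threshold with equal totals (-1.22) and with a median ratio of 1 (-1.09). *Adamts14* had 1.16 and 2.36, a ratio of 2.04 (95% interval 1.41 to 2.98) whose log2 difference of 0.97 fell just short of the threshold and passed it with a pseudocount of 0.01. *Adamts3* had 32 and 10 reads and was not compared. Among the remaining ADAMTS genes, *Adamts12* was called lower, at 4.25 and 1.51 with a ratio of 0.356 (0.255 to 0.489), and *Adamts10*, a fibrillin-associated protein, stood at 17.1 and 16.3. *Adamts6*, *Adamts7* and *Adamts16* differed by less than 2-fold, and *Adamts17* had 3 reads in each library.

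ADAMTS-like proteins have the ancillary domains of ADAMTS enzymes but no protease domain, and several bind fibrillin microfibrils. All 4 compared members had lower values in TG+AKI, with a median log2 difference of -1.04, and 2 of them were called. *Adamtsl4* fell from 13.7 to 4.32, a ratio of 0.315 (95% interval 0.261 to 0.379), and *Adamtsl5* from 3.02 to 1.30, a call not made with a pseudocount of 1. *Adamtsl2*, the most abundant of them, had 59.5 and 31.2, and its log2 difference of -0.93 passed the threshold with equal totals and with a median ratio of 1. *Adamtsl1* stood at 9.46 and 5.19, and its log2 difference of -0.85 passed the threshold with equal totals (-1.12). *Adamtsl3* had 4 and 7 reads.

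**Figure D3:**
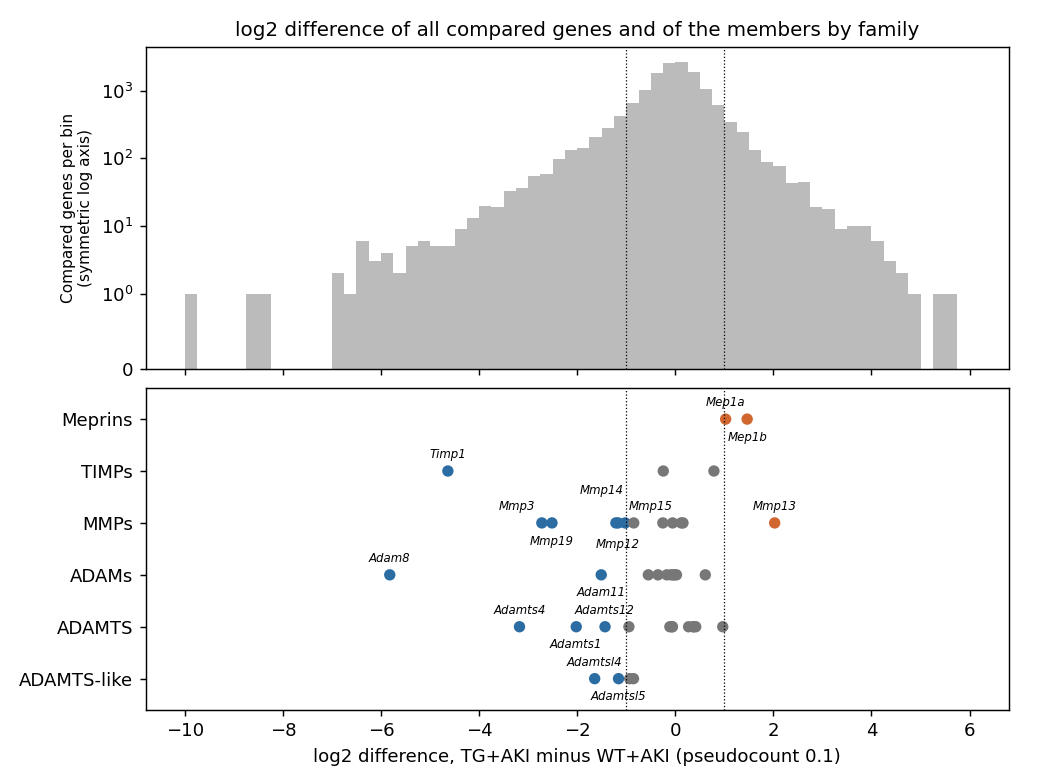
Upper panel, number of the 14997 compared genes in each bin of the log2 difference between TG+AKI and WT+AKI (symmetric log axis). Lower panel, the 42 compared members by family on the same axis, with the called ones named and dotted lines at 2-fold, where 13 members lie to the left of the lines and 3 to the right, and *Mep1a* falls back between them with equal totals or a median ratio of 1.

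The 13 members that were not compared had 2 to 37 reads. For 11 of them the interval of the ratio included 1, and the exceptions were *Mmp9* and *Adamts3*, both lower in TG+AKI. Of all 55 members, 40 shared no 100-base word with another gene's transcript on either strand and 8 shared over 5% of them. A further 35 of the 90 genes listed for these families had no row and were not analysed here. Every row of the table had at least 1 read in both libraries. A gene with reads in only 1 library would therefore have no row, and no count here covers such genes.

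Genes that activate, carry or inhibit these enzymes were mostly within 2-fold. They include furin-type convertases, iRhoms and tetraspanins. Of the 14 activators and partners with a row, of 15 fixed, 1 was called lower (7.14%, against 10.5% of all compared genes) and none higher. With equal totals 4 were called lower, against 15.6% of all compared genes. The median log2 difference of 0.13 became -0.15 with equal totals. The called gene was *Rhbdf2* (iRhom2), which brings ADAM17 to the cell surface, and it fell from 46.5 to 11.4, a ratio of 0.244 (95% interval 0.218 to 0.273). *Furin*, which removes the inhibitory prodomain of many of these proteases, was at 181 and 196.

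Of the membrane proteins that ADAMs shed, several were called lower, and *Egf* and *Kl* were called higher. Among the 5 EGF-family ligands with a row, of 8 fixed, *Egf* rose from 54.3 to 1159.6. *Hbegf*, *Nrg1* and *Tgfa* were called lower, with log2 differences of -1.79, -1.61 and -1.54 (60% of these ligands, against 10.5% of all compared genes). Of 18 other shed membrane proteins, 7 were called lower (38.9%) and 1 higher (5.56%), against 10.5% and 7.02% of all compared genes. The higher one was *Kl* (Klotho), which ADAM10 and ADAM17 release, at 140 and 638, and the largest decrease was that of *Havcr1* (KIM-1), at 1169 and 2.78. *Tnfrsf1b*, *Tnf* and *Sdc1* fell with log2 differences between -1.82 and -1.74, although *Tnf*, the ligand cut by ADAM17, was not called with a pseudocount of 1. These are transcript levels of the substrates, and shedding itself was not measured.

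The plasminogen system can activate pro-MMPs. Of its 7 genes with a row, of 9 fixed, 5 were called lower (71.4%, against 10.5% of all compared genes) and 1 higher. The median log2 difference of these genes was -2.39. *Plaur* (the urokinase receptor) fell from 62.5 to 2.54, and *Anxa2*, *S100a10*, *Plat* and *Serpine2* fell with log2 differences of -2.70, -2.45, -2.39 and -2.07. *Plau* (urokinase) was not called, at 537 and 458, and the 1 higher gene was *Serpinf2*, at 76.8 and 235. Activity of the plasminogen system was not measured. Of the 13 matrix substrates with a row, of 14 fixed, 8 were called lower (61.5%, against 10.5% of all compared genes) and none higher. Their median log2 difference was -1.25. Over the pseudocount of 1 and the other scalings, 7 to 10 were called lower, beside 7.67% to 15.6% of all compared genes. Decreases there included those of *Vcan*, *Col1a1*, *Col3a1*, *Tnc* and *Fn1*, with log2 differences from -2.11 to -1.32, and *Vcan*, a substrate of ADAMTS1 and ADAMTS4, had 119 and 19 reads.

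Of the 8 listed AP-1 genes, 6 were called lower (75%, against 10.5% of all compared genes), with a median log2 difference of -2.24. With equal totals all 8 were called lower, against 15.6% of all compared genes. *Fosl1* had 1745 reads in the wild type and 1 read in the transgenic library, *Atf3* stood at 27.2 and 1.81, and *Fosl2*, *Fosb* and *Junb* had log2 differences of -2.58, -2.44 and -2.04. Binding of these factors to the promoters shown was not measured.

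**Figure D4:**
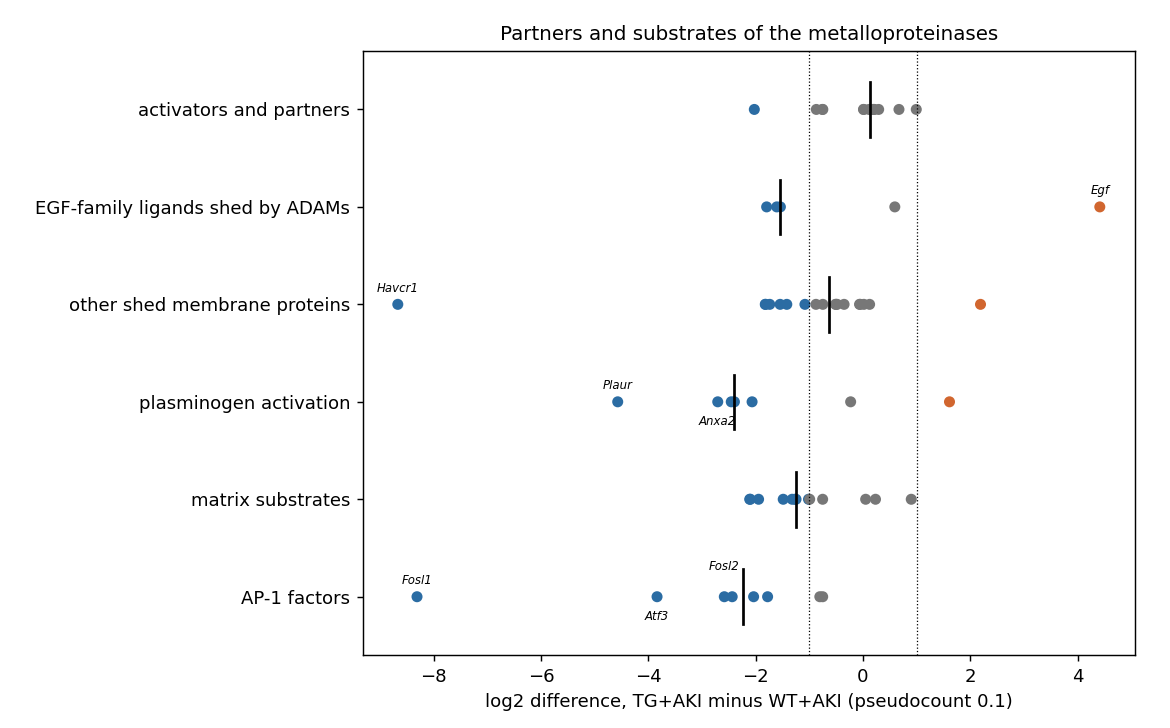
Log2 difference between TG+AKI and WT+AKI of each compared gene in 6 lists of genes that act with metalloproteinases, with the list medians as vertical bars and dotted lines at 2-fold. The AP-1 and plasminogen lists have medians of -2.24 and -2.39, whereas the activators and partners have a median of 0.13 (-0.15 with equal totals), and genes past 2.5 in either direction are named.

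Marker genes of other cells and of tubule injury also differed between the libraries. Beside the counts here, 10.5% of all compared genes were called lower and 7.02% higher. With equal totals these shares were 15.6% and 4.57%, and with a pseudocount of 1 they were 7.67% and 5.23%. All 7 fixed markers of injured tubule were called lower, and their summed value went from 2225 in the wild type to 117 in the transgenic library. Of 8 macrophage markers, 6 were called lower (*Cd68*, *Itgam*, *Lyz2*, *C1qa*, *Adgre1* and *C1qb*), while *Csf1r* and *Mrc1* were not (5 with a pseudocount of 1 or with median-of-ratios size factors, where *C1qb* was not called), and the sums over the list were 176 and 79.1. The 3 neutrophil markers with a row, of 8 fixed, had sums of 7.38 and 1.42, with *S100a9* and *Csf3r* called lower. Fibroblast and mural cell markers had 2 of 7 called lower (*Dcn* and *Postn*), or 6 with equal totals and 1 with a pseudocount of 1, with sums of 414 and 234. None of the 6 endothelial, 5 podocyte or 4 collecting duct markers was called, and 2 of 4 markers of the thick ascending limb (*Slc12a1* and *Kcnj1*) were called higher, *Kcnj1* not so with equal totals or a median ratio of 1. Markers of germ cells, of T and NK cells and of red blood cells had summed values of at most 5.47 in either library. The part of the injured tubule, macrophage, neutrophil and fibroblast markers in the differences of *Adam8*, *Timp1*, *Mmp12*, *Mmp14*, *Adamts1* and *Adamts4* was not tested.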

How the data were processed

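The authors aligned reads of stranded mRNA libraries with STAR 2.7.3a (build mm10, per the submitters' processing notes), counted them per gene with HTSeq and normalized them, with DESeq2 named in the methods; the notes also name Cufflinks 2.2.1, FastQC and edgeR. The annotation and the strand setting of the counting are not given in the sources used here, and reads of overlapping genes may not be separable. The deposited table holds 1 normalized signal per gene and library. All values were integer multiples of their column's lowest value (100%, within a relative tolerance of 1e-06), so whole reads were recovered. The columns summed to 909104 (WT+AKI) and 1099984 (TG+AKI).

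Groups came from the library names. The log2 difference used a pseudocount of 0.1 over genes that reached a value of 1 in either library. Ratios carry Clopper-Pearson intervals, and the two-sided exact binomial test on reads was adjusted by Benjamini-Hochberg over all 19829 genes. The floor was set at 3 reads (0.0708 for WT+AKI, 0.0906 for TG+AKI). Alternatives were pseudocounts of 1 and 0.01, 3 other scalings (equal totals, a median ratio of 1 for genes with values of 100 or more in each library, and median-of-ratios size factors), a filter of 10, no filter, and the addition of the binomial test. Promoters are from RefSeq (GRCm38.p6). Lengths came from the longest transcript of each member. The 100-base words of that transcript were searched in all transcripts of other genes, on both strands. A shared word may therefore come from an overlap in the opposite direction. The calculation steps were run on simulated reads with counting error only, which checks the arithmetic and not the calls.

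Named are all MMPs, TIMPs and meprins, and the other members with a value of at least 10 or a call. From each context list, the 5 largest called differences are named. *Adam12*, *Adam19*, *Adam22*, *Adam28*, *Adam33*, *Adam1a* and the remaining low ADAMTS and ADAMTS-like genes were named after their values were seen. So were *Furin*, *Plau* and *Serpinf2*. Of the context lists, 2 genes are not reported here and are left out of the counts. Members and lists were chosen with earlier results of these data known. Python 3.11.15, numpy 2.4.6, scipy 1.17.1, pandas 2.3.3 and matplotlib 3.10.9 were used.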

Additional observations from a re-analysis of the deposited data

How the results depend on the processing

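With the alternatives run, the members called higher ranged from 2 to 4 and those called lower from 7 to 17, against 3 and 13 as reported. No called member changed sign. The 7 lower calls arose with a filter of 10, which left 20 members to compare and called 7.62% of all compared genes lower. With equal library totals the median log2 difference of all members was -0.48, the median of all genes shifted by -0.27, and 22.7% of all called genes were higher, against 40.0% as reported and 30.3% with a median ratio of 1 (a shift of -0.14). With equal totals 2 members were called higher and 17 lower, and all 13 reported lower members were among these. Of all compared genes, 4.57% were called higher and 15.6% lower with equal totals, against 7.02% and 10.5% as reported. With a pseudocount of 1, 2 members were higher and 10 lower, beside 5.23% and 7.67% of all compared genes. Without a filter, *Mmp9* and *Adamts3* were also called lower. Adding the binomial test left 3 and 13, but it removed no called gene in the whole table, so these unchanged counts are no check of the calls. No paired analysis was possible because each group has 1 library, and for the same reason no library could be left out. Depth limits the 13 members under a value of 1, *Mmp13* and *Timp4*.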
